A study of Mus musculus with 48 samples.

Results

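RNA immunoprecipitation and sequencing was used in mouse embryonic stem cells to measure which RNAs were recovered with HA-tagged Tnrc6a in a line labelled Upf1 knockout, over what the same beads recovered from an untagged line. The value of interest is the log2 recovery, formed per gene as the log2 ratio of immunoprecipitate (IP) to input in the Upf1 knockout cells less the same ratio in untagged cells, within each of 2 experiments and then averaged. It draws on 24 of the 48 libraries of the study, 3 for each combination of genotype, fraction (input or IP) and experiment (numbered 3 and 4 by the submitters). The untagged cells are 129S6/SvEvTac embryonic stem cells of a line called GFP_5xT71BS, which carries a construct of that name and a stably transfected FLAG-Cas9. The Upf1 knockout cells are labelled with the same line name, an HA-AVI tag on Tnrc6a and Upf1-/-. All cells were grown on gelatin with LIF, in triplicate, and lysates matched for protein were put on HA magnetic beads, per the labels and the design text. How many clones stand for each genotype is not given in the sources used here, so a difference between genotypes may also be a difference between clones. The p-values measure the spread between these cultures. The HA-Tnrc6a line (12 libraries), with the same line name and tag but without the Upf1 label, is used only to show where the Upf1 knockout cells differ from it.

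Tnrc6a is one of the mouse GW182 proteins, which bind Argonaute proteins loaded with microRNAs and recruit the CCR4-NOT and PAN deadenylases, and through them decapping enzymes, to the mRNA. Trim71 is an RNA-binding protein of embryonic stem cells that represses mRNAs such as Cdkn1a and is itself a target of let-7 microRNAs. Upf1 is the RNA helicase at the centre of nonsense-mediated decay, which degrades transcripts whose translation ends far upstream of their 3′ end. The comparison asks which classes of RNA stay with Tnrc6a in cells in which Upf1 was targeted.

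The microRNAs that dominate embryonic stem cells belong to the miR-290 to miR-295 cluster, and they and the related miR-302 family share the core of their seed. Their mature sequences are shown, from RefSeq on GRCm38.p6, because the target lists below were drawn up around them. Bases 2 to 8, the seed, are in capitals.
mmu-miR-290a-3p: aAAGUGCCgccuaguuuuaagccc
mmu-miR-291a-3p: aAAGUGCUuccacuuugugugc
mmu-miR-291b-3p: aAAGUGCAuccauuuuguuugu
mmu-miR-294-3p: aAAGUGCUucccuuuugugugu
mmu-miR-295-3p: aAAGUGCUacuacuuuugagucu
mmu-miR-302b-3p: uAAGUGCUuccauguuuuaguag
mmu-miR-302d-3p: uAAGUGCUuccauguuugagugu
mmu-let-7a-5p: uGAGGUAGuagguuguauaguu
mmu-let-7g-5p: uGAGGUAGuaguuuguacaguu
The miR-291a, miR-294, miR-295, miR-302b and miR-302d seeds are the same, AAGUGCU. Those of miR-290a (AAGUGCC) and miR-291b (AAGUGCA) differ from it in the last base. The miR-290 cluster members lie on the plus strand of chromosome 7, from miR-290a at chr7:3218674-3218697 to miR-295 at chr7:3220815-3220837. The let-7 seed, GAGGUAG, belongs to a family that rises as stem cells differentiate. Mature microRNAs were not measured in these libraries.

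The tagged gene gave the largest signal among well-measured protein-coding mRNAs. Tnrc6a (chr7:123031101-123195296) stood at 73.8 to 105 CPM (median 87.3) in the untagged inputs, 56.4 to 107 CPM (median 86.5) in the untagged IPs and 66.9 to 89.2 CPM (median 74.9) in the Upf1 knockout inputs. In the 6 Upf1 knockout IPs it stood at 8233 to 23703 CPM (median 16846), far above every other library. Its log2 recovery was 7.66 (SE 0.16, adjusted p = 4.69e-20) by edgeR's quasi-likelihood test with Benjamini-Hochberg adjustment, which is the test behind every adjusted p below. All 6 IPs labelled as tagged carried this signal, and the 6 untagged IPs stayed at the level of the inputs.

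Upf1 mRNA was higher, not lower, in the inputs that carry the Upf1 knockout label. Upf1 (chr8:70331493-70353423) stood at 81.3 to 113 CPM (median 100.5) in the untagged inputs and at 119 to 145 CPM (median 129.7) in the Upf1 knockout inputs, with no overlap between the 2 groups. The log2 difference of the inputs was 0.42 (adjusted p = 2.94e-09). Counts over a whole gene cannot show a small edit, so these values neither check nor go against the label, and the gene overlaps Cers1 and Gdf1. Recovery of the Upf1 mRNA itself was -0.15 (SE 0.07, adjusted p = 0.0467), a call lost under 19 of 34 other settings, among them either experiment alone and most of the fits without 1 library.

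Library totals ran from 12752516 to 18515659 counts in experiment 3 and from 25966222 to 37179105 in experiment 4, so that experiment 4 has the smaller counting error. The untagged input numbered 1 stood apart from the other untagged inputs of experiment 3. The chi-square per degree of freedom between the untagged input numbered 1 and the other 2 was 10.7 and 9.48, against 1.96 between those 2. For the untagged IP numbered 1 the values were 29.9 and 19.2, against 17.1 between the other 2. In experiment 4 the untagged IP numbered 5 gave 19.8 and 14.8, against 5.74 between the untagged IPs numbered 4 and 6. The Upf1 knockout IP numbered 4 stood apart in experiment 4, at 26.4 and 36.3 against 4.70 between the IPs numbered 5 and 6. Without it 12497 genes were called over untagged (6342 higher and 6155 lower), and 507 between the experiments against 335 with it. Results that the untagged input and IP numbered 1 move by over 1.5 times, or whose call they end, are named below or in the closing section. The summed level of 20 pluripotency genes was 10129 to 10978 CPM in the untagged inputs and 9313 to 10041 CPM in the Upf1 knockout inputs. Markers of other cells were low. Endoderm markers summed to 72.3 to 124 and 53.6 to 138 CPM, mesoderm markers to 7.45 to 13.1 and 10.7 to 19.9 CPM, and fibroblast markers to 26.6 to 32.6 and 26.6 to 37.5 CPM, in untagged and Upf1 knockout inputs in that order. Neural markers were lower in the Upf1 knockout inputs (52.5 to 67.0 CPM, against 90.6 to 112 CPM). In bulk samples such as these, fewer cells of a type and less RNA per cell cannot be told apart.

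Of 19910 genes tested, 12664 (63.6%) had a log2 recovery that differed from 0 at an adjusted p under 0.05. They split evenly, with 6338 higher (31.8%) and 6326 lower (31.8%) in the Upf1 knockout over untagged. This split depends on the scaling, here TMM. With library totals in its place the median of all genes shifted by -0.26 and 4975 genes were higher against 8694 lower. The split was unequal in size, since 3523 genes were higher by at least 2-fold (17.7%) and 1385 lower by at least 2-fold (6.96%). The median over all genes was -0.06. Across genes, the log2 recoveries of experiments 3 and 4 had a Pearson correlation of 0.823, over genes that are not independent replicates. They were formed from different libraries of 1 fit, with a shared filter and scaling.

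**Figure D1:**
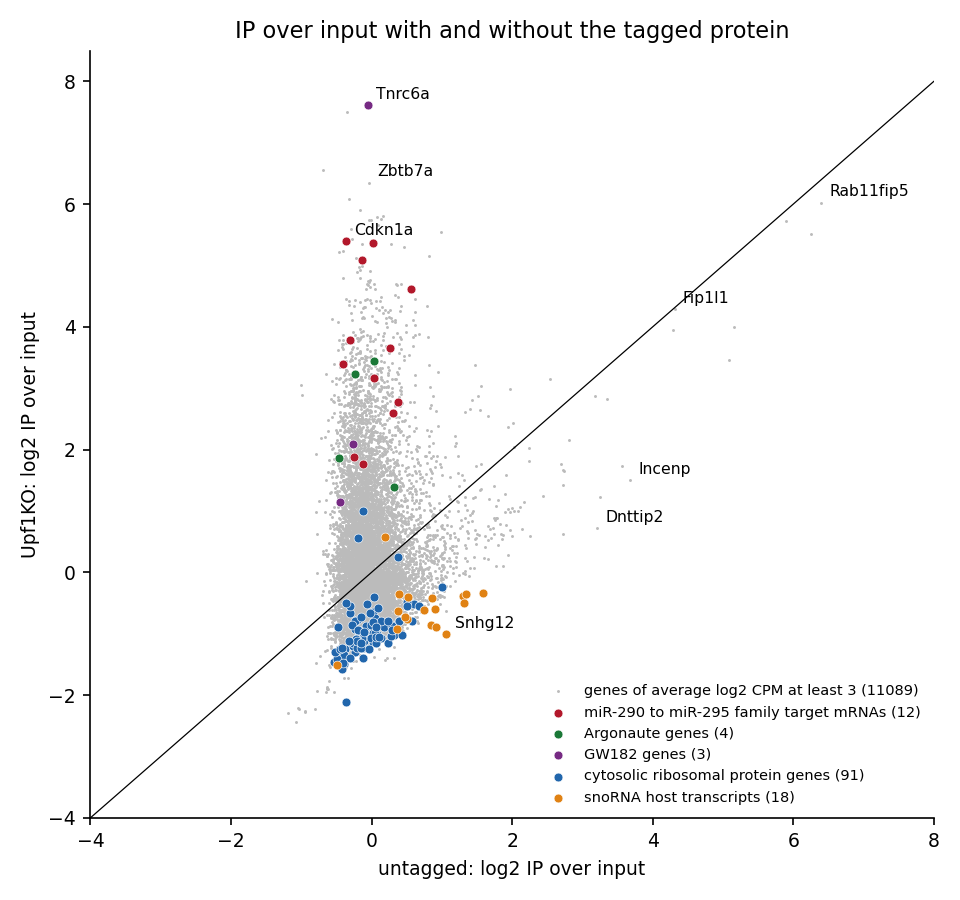
Log2 IP over input in untagged cells (x axis) and in Upf1 knockout cells (y axis), averaged over both experiments, for the 11089 genes of average log2 CPM at least 3, with 5 gene lists in colour. Genes recovered with the tag lie above the diagonal, with Tnrc6a at 7.61 on the y axis and -0.05 on the x axis, and genes such as Incenp (3.68 on the x axis) are recovered by the beads without it.

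The 8 highest recoveries among genes of average log2 CPM at least 3 were those of Tnrc6a itself, a pair of transcripts without a RefSeq entry, and Zbtb7a, Zfp367, Zfp768, Gdf11 and Gnb5. Zbtb7a, a zinc finger repressor (chr10:81135225-81152222), rose from 30.7 to 49.3 CPM (median 39.4) in the Upf1 knockout inputs to 2790.3 to 3888 CPM (median 3112) in their IPs. In untagged cells it stood at 45.5 to 76.0 CPM (median 57.8) in the inputs and at 42.9 to 73.9 CPM (median 58.5) in the IPs, so that only the tagged IPs stood out. Its log2 recovery was 6.38 (SE 0.08, adjusted p = 1.40e-36). Zfp367, a zinc finger transcription factor (chr13:64133022-64153199), reached 1504 to 1947 CPM (median 1635) in the Upf1 knockout IPs, from 20.6 to 30.1 CPM (median 24.2) in the inputs and 15.1 to 27.7 CPM (median 23.1) in the untagged IPs. Its log2 recovery was 6.41 (SE 0.10).

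Zfp768, another zinc finger gene, Gdf11, a secreted factor of the TGF-beta family, and Gnb5, a G protein beta subunit, had log2 recoveries of 6.06 (SE 0.13), 5.89 (SE 0.20) and 5.77 (SE 0.10). Gdf11 was scarce in the inputs, at 1.85 to 3.44 CPM (median 2.44) in Upf1 knockout cells, and stood at 109.9 to 139 CPM (median 128) in their IPs. The 6 IPs of the tagged cells lay above all 18 other libraries for each of these genes. Gnb5 overlaps Myo5c, and whether reads were counted by strand is not given in the sources used here, so its value is less certain. The 2 transcripts without a RefSeq entry, Gm45846 and Gm47513, had log2 recoveries of 7.86 (SE 0.63) and 7.26 (SE 0.31).

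**Figure D2:**
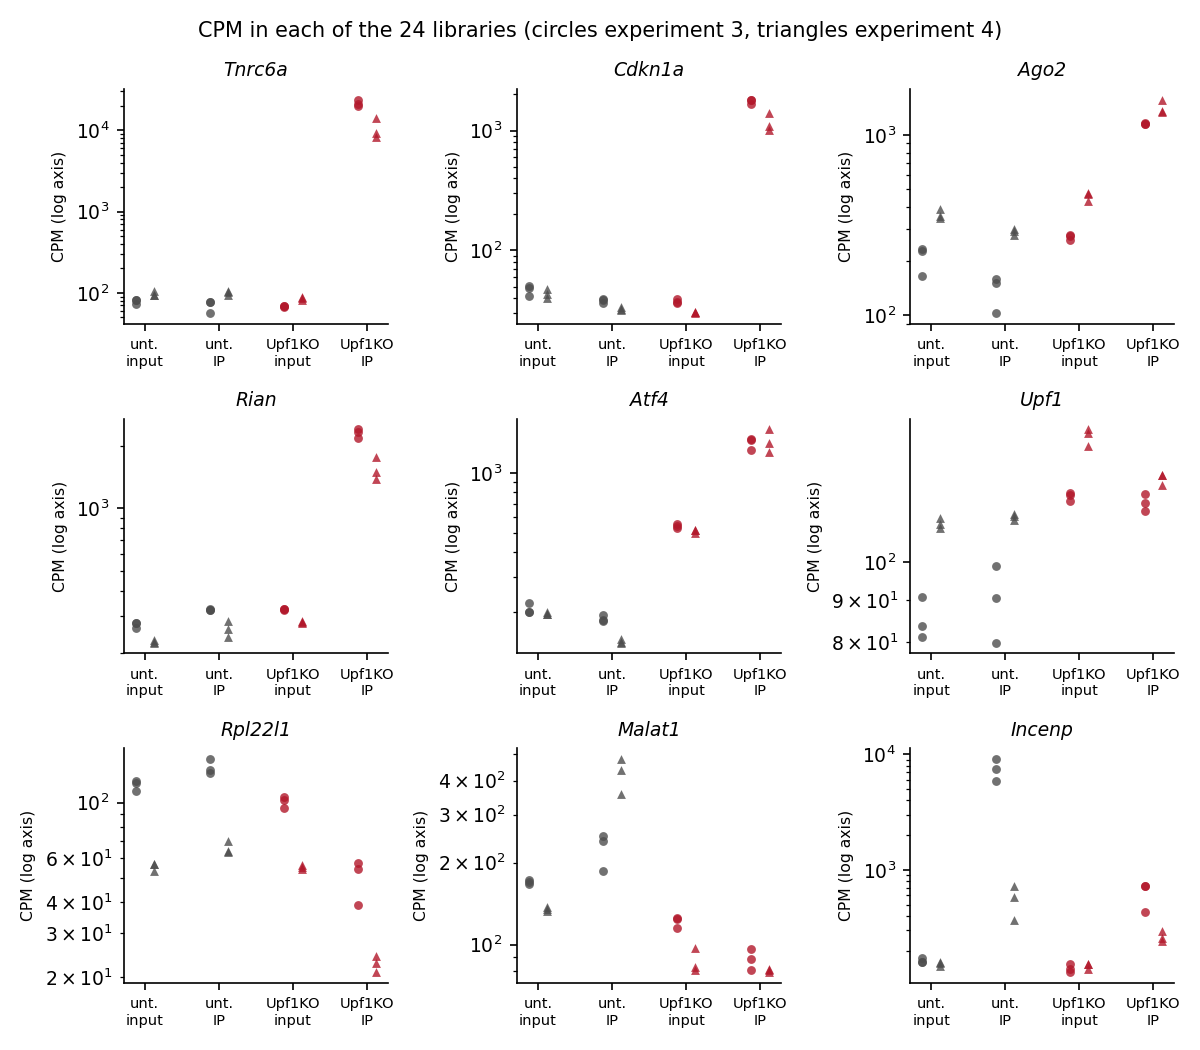
CPM (log scale) of 9 genes in each of the 24 libraries, grouped by genotype and fraction, with experiment 3 and experiment 4 marked separately. Tnrc6a, Cdkn1a, Ago2, Rian and Atf4 are highest in the 6 Upf1 knockout IPs, Rpl22l1 is below the untagged IPs there, and Incenp spreads from 366 to 9176 CPM in the untagged IPs.

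The Argonaute and GW182 mRNAs, which encode the partners of the tagged protein, were all recovered. All 4 Argonaute genes and all 3 GW182 genes were higher by at least 2-fold (17.7% of all genes were), with medians of 2.87 and 2.36 against -0.06 for all genes. Ago1 (chr4:126435012-126468707) went from 88.8 to 94.9 CPM (median 93.4) in the Upf1 knockout inputs to 743 to 986 CPM (median 892) in the IPs, while the untagged IPs held 56.5 to 78.1 CPM (median 71.2). Its log2 recovery was 3.47 (SE 0.07, adjusted p = 1.00e-29). Ago2, the Argonaute with slicing activity (chr15:73101625-73184947), stood at 166 to 390.3 CPM (median 291) in the untagged inputs and at 103 to 301.3 CPM (median 219) in the untagged IPs. In Upf1 knockout cells it stood at 262 to 479 CPM (median 355) in the inputs and at 1149.6 to 1573 CPM (median 1255) in the IPs, above all other libraries. The log2 recovery of Ago2 was 2.32 (SE 0.12, adjusted p = 1.10e-14).

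Ago3 and Ago4 differed in abundance and in recovery. Ago3 had the lowest value of the family, 1.07 (SE 0.11), with 29.2 to 36.2 CPM (median 32.6) in the Upf1 knockout IPs against 14.1 to 21.3 CPM (median 17.1) in the untagged IPs. Ago4 was hardly present in the inputs, at 0.691 to 1.17 CPM (median 1.07) in Upf1 knockout cells, and stood at 8.73 to 12.9 CPM (median 10.5) in their IPs, a log2 recovery of 3.41 (SE 0.30, adjusted p = 4.64e-12). Tnrc6b and Tnrc6c, the GW182 paralogues that carry no tag, had log2 recoveries of 2.36 (SE 0.10) and 1.60 (SE 0.07). Tnrc6b stood at 168 to 187 CPM (median 179) in the Upf1 knockout IPs and at 25.2 to 46.4 CPM (median 37.5) in the untagged IPs. Tnrc6c stood at 113 to 213 CPM (median 157) and 44.1 to 87.1 CPM (median 66.4) in the same groups.

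The mRNAs of the silencing enzymes that GW182 proteins recruit leaned the same way. Of 18 deadenylase genes (CCR4-NOT, PAN and their Tob and Btg adaptors), 14 were higher and 3 lower (31.8% of all genes were higher and 31.8% lower), with a median of 0.82. Tob2 and Btg1, antiproliferative adaptors that bind the CCR4-NOT deadenylases, led the list. Tob2 went from 14.6 to 17.9 CPM (median 16.5) in the Upf1 knockout inputs to 248 to 316 CPM (median 270.0) in the IPs, with 10.6 to 14.4 CPM (median 12.8) in the untagged IPs, a log2 recovery of 4.56 (SE 0.10, adjusted p = 1.87e-29). The value for Btg1 was 4.14 (SE 0.10). The lowest were Cnot10, a CCR4-NOT subunit, at -0.56 (SE 0.07), and Pan2, the catalytic subunit of the PAN deadenylase, at -0.54 (SE 0.07).

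Among 12 genes of decapping and 5′ decay, 7 were higher and 2 lower (31.8% of all genes each way), and the median was 0.57. Dcp1b, a decapping cofactor, had a log2 recovery of 3.15 (SE 0.11), though it overlaps Cacna1c. Dcp2, the decapping enzyme, stood at 696 to 894 CPM (median 782) in the Upf1 knockout IPs against 104 to 183 CPM (median 139) in the untagged IPs, a log2 recovery of 2.05 (SE 0.07, adjusted p = 7.85e-24). Lsm14b and Lsm1, RNA-binding proteins of P-bodies and of the cytoplasmic LSM ring, reached 2.42 (SE 0.09) and 1.77 (SE 0.09). The paralogue Lsm14a was lower, at -0.40 (SE 0.06). Ddx6, the helicase of P-bodies, was higher at 0.59 (SE 0.09). Its log2 ratio of IP to input was 0.03 in Upf1 knockout cells and -0.55 in untagged cells.

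Known targets of the embryonic stem cell microRNAs were recovered. All 12 mRNAs of the list of known miR-290 to miR-295 targets were higher by at least 2-fold (17.7% of all genes were), with a median of 3.60. The list was drawn up with results of these data known. The cell cycle inhibitor Cdkn1a (chr17:29090979-29100722) stood at 40.5 to 50.1 CPM (median 45.6) in the untagged inputs, 32.1 to 39.2 CPM (median 35.2) in the untagged IPs and 30.0 to 39.5 CPM (median 33.7) in the Upf1 knockout inputs. It stood at 1012 to 1811 CPM (median 1524) in the Upf1 knockout IPs, with a log2 recovery of 5.75 (SE 0.09, adjusted p = 6.58e-33). Every tagged IP exceeded every other library by a wide margin, and the tagged inputs were slightly below the untagged inputs.

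Other regulators of the cell cycle and cell death in the list rose as well. Rbl2, a retinoblastoma-family repressor (chr8:91070057-91123844), stood at 7.61 to 10.8 CPM (median 9.86) in the Upf1 knockout inputs, at 347 to 462 CPM (median 375) in their IPs and at 11.4 to 14.8 CPM (median 11.7) in the untagged IPs, a log2 recovery of 5.34 (SE 0.10, adjusted p = 7.63e-31). It overlaps Aktip. Casp2, a caspase, stood at 21.1 to 27.6 CPM (median 23.2), 674 to 974 CPM (median 835) and 19.5 to 25.9 CPM (median 22.7) in the same 3 groups, with a log2 recovery of 5.22 (SE 0.10, adjusted p = 2.38e-30). Ei24, a p53-induced gene, and Lats2, a kinase of the Hippo pathway, had log2 recoveries of 4.08 (SE 0.07) and 3.39 (SE 0.15). Rbl1, the paralogue of Rbl2 and a Trim71 target of the list below, was at 2.2 (SE 0.11).

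The signalling genes of the list spread more between libraries. Lefty1 and Lefty2, inhibitors of Nodal signalling, had log2 recoveries of 3.14 (SE 0.15) and 1.89 (SE 0.09). Lefty1 ran from 17.7 to 105 CPM over the 6 Upf1 knockout IPs and from 1.92 to 11.5 CPM over their inputs, still above the untagged IPs in every case. Tgfbr2, a TGF-beta receptor, Rhoc, a GTPase, and Mbd2, a methyl-CpG binding protein, had log2 recoveries of 3.81, 2.13 and 2.40. Dkk1, a Wnt inhibitor, and Irf2, an interferon regulatory factor, were at the limit of detection in the inputs, at 0.0922 to 0.866 CPM (median 0.507) and 0 to 0.0687 CPM (median 0.0483) in Upf1 knockout cells. Their values of 2.28 (SE 0.51) and 4.06 (SE 0.90) did not pass the test in experiment 3 alone, where libraries held fewer counts.

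All 5 known Trim71 target mRNAs were higher by at least 2-fold (17.7% of all genes were), with a median of 4.67. Cdkn1a and Rbl2 among them were also in the list of microRNA targets. Mbnl1, a splicing regulator (chr3:60472559-60629750), went from 2.01 to 6.67 CPM (median 4.15) in the Upf1 knockout inputs to 62.1 to 160.0 CPM (median 99.2) in the IPs, a log2 recovery of 4.67 (SE 0.12, adjusted p = 2.92e-27). Its inputs were lower than the untagged inputs, with a log2 difference of -1.13 (adjusted p = 9.31e-12). Plxnb2, a semaphorin receptor, stood at 158 to 515 CPM (median 319) in the Upf1 knockout IPs against 43.3 to 76.7 CPM (median 71.1) in the untagged IPs, with a log2 recovery of 2.08 (SE 0.15, adjusted p = 2.44e-10).

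The 17 let-7 targets were divided. Of these, 11 were higher and 4 lower (31.8% of all genes each way), with a median of 0.85, and 2 to 4 were lower with 1 library left out. Mycn, a proto-oncogene of stem cells, had a log2 recovery of 2.52 (SE 0.08, adjusted p = 1.14e-25), with 332 to 603 CPM (median 409) in the Upf1 knockout IPs and 103 to 139 CPM (median 115) in the untagged IPs. Trim71 itself stood at 169.7 to 288 CPM (median 229.7) and 128 to 189 CPM (median 153) in untagged inputs and IPs. In Upf1 knockout cells it stood at 149 to 266 CPM (median 203) and 637 to 849 CPM (median 714), a log2 recovery of 2.37 (SE 0.07, adjusted p = 2.41e-25) with the tagged IPs above every other library. Myc and Igf2bp2, an RNA-binding protein, were lower at -0.70 (SE 0.10) and -0.32 (SE 0.07), the latter not called in experiment 3 alone. For Myc the tagged and untagged ratios of IP to input were 0.19 and 0.89 on the log2 scale.

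**Figure D3:**
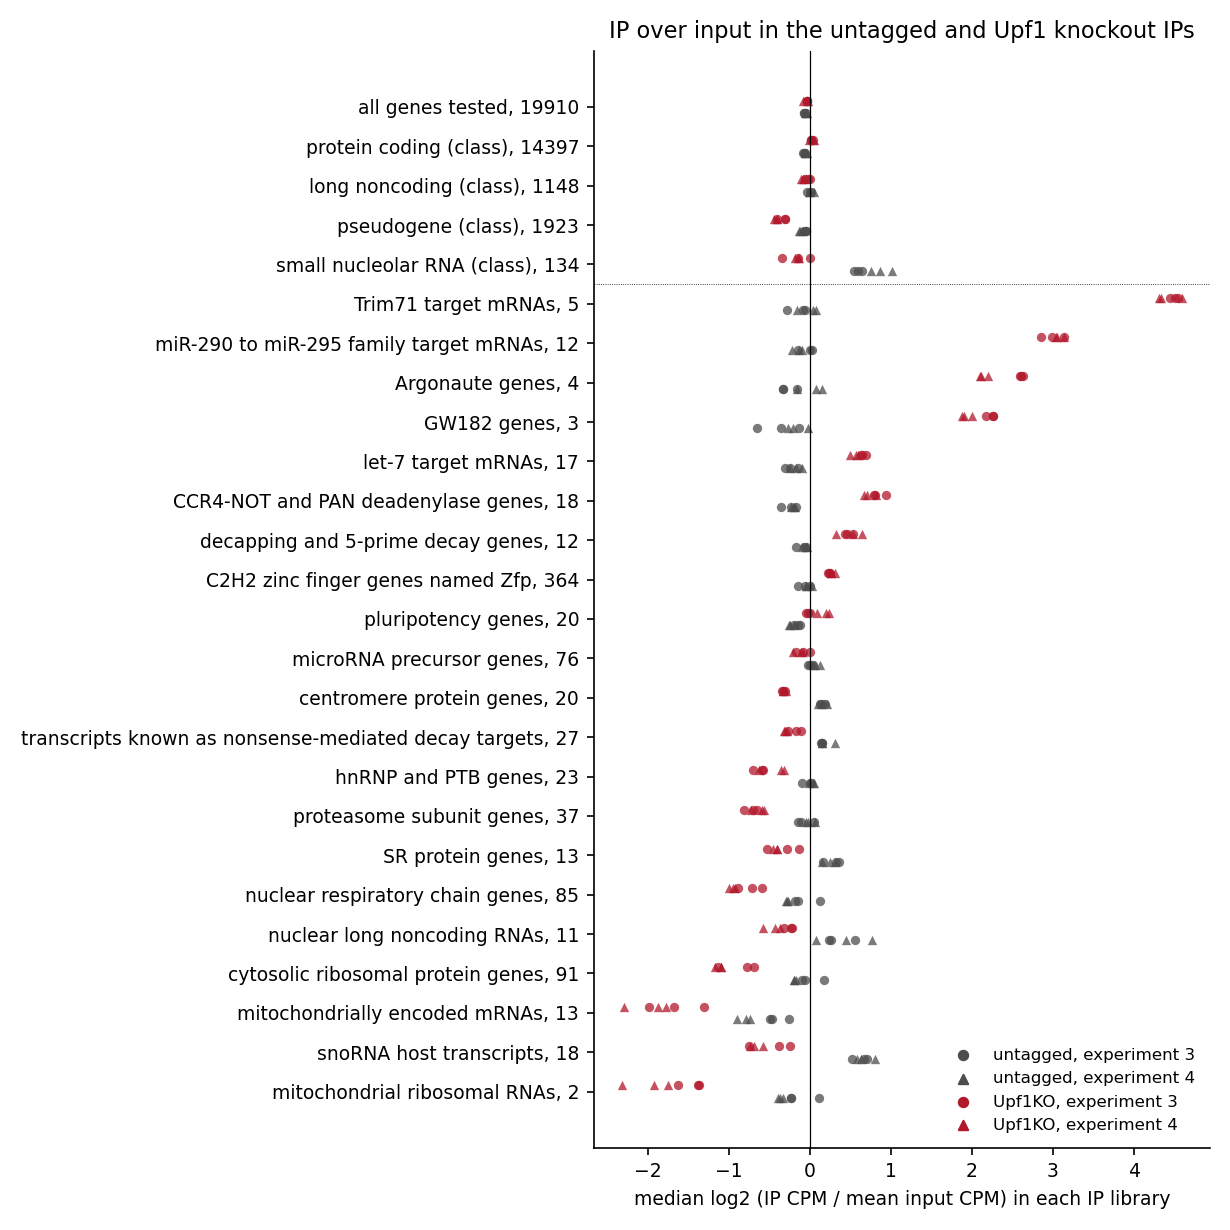
Median log2 IP over mean input of gene lists (rows) in each of the 6 untagged and 6 Upf1 knockout IPs (points, coloured by genotype, with circles for experiment 3 and triangles for experiment 4). The 12 miR-290 to miR-295 targets sit between 2.86 and 3.14 in the Upf1 knockout IPs and between -0.22 and 0.02 in the untagged IPs, and the cytosolic ribosomal protein genes between -1.17 and -0.68 and between -0.20 and 0.18.

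Genes of nonsense-mediated decay had more lower than higher recoveries. Of 19 factor genes (Upf and Smg proteins and the exon junction complex), 4 were higher and 11 lower (31.8% of all genes each way), with a median of -0.42. With 1 library left out 2 to 5 were higher and 10 to 12 lower, and under the other settings 2 to 8 were higher. Casc3, a core protein of that complex (chr11:98809808-98833807), was the highest. It stood at 87.3 to 112 CPM (median 99.3) in the Upf1 knockout inputs, at 170.0 to 408 CPM (median 311) in their IPs and at 75.8 to 92.1 CPM (median 85.3) in the untagged IPs, and every tagged IP was above every other library. Its log2 recovery was 1.53 (SE 0.11, adjusted p = 1.83e-13). It overlaps Gm12359. Magoh and Rbm8a, core subunits of the same complex, were lowest at -0.98 (SE 0.08) and -0.99 (SE 0.10).

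Of 27 transcripts known as substrates of nonsense-mediated decay, 8 (29.6%) were higher and 16 lower in recovery, with a median of -0.56. The share higher was near the 31.8% of all genes, and 31.8% of all genes were lower. The 27 transcripts share members with the lists of SR splicing factor, hnRNP and PTB, and snoRNA host genes given below. These lists are therefore not independent of each other. In the inputs the 27 transcripts leaned upwards. The input level was higher in Upf1 knockout than in untagged cells for 20 of the 27 and lower for 5, where 19.7% of all genes were higher and 25.8% lower. Atf4, a stress-response transcription factor with upstream reading frames (chr15:80255184-80257545), was higher in both. It stood at 197 to 222 CPM (median 200.3) in the untagged inputs and at 502 to 552 CPM (median 525) in the Upf1 knockout inputs, an input difference of 1.38 (adjusted p = 7.35e-21). In the IPs it stood at 141 to 194 CPM (median 165) and 1278 to 1658 CPM (median 1439), a log2 recovery of 1.76 (SE 0.07, adjusted p = 2.01e-21), and every tagged IP was above every tagged input. Ptbp2, a splicing regulator, was recovered as well, at 1.44 (SE 0.10, adjusted p = 1.49e-14), but its inputs were lower than the untagged inputs, with a log2 difference of -0.72.

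The lowest members of the substrate list were noncoding snoRNA host transcripts. Snhg12 (chr4:132308678-132311024) stood at 41.0 to 86.5 CPM (median 57.6) and 88.0 to 166 CPM (median 128) in untagged inputs and IPs. In Upf1 knockout cells it stood at 129 to 147 CPM (median 142) in the inputs and at 55.7 to 92.9 CPM (median 63.4) in the IPs. Its inputs were thus higher by 1.29 on the log2 scale, and its recovery was lower, at -2.07 (SE 0.12, adjusted p = 2.72e-13). Snhg1 gave a like pair of values, 1.14 in the inputs and -1.93 (SE 0.12) in recovery. Reads of snoRNAs inside both genes may be counted with them. Without the inputs, that is with IPs compared directly, the median of the 27 substrates turned from -0.56 to 0.28.

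**Figure D4:**
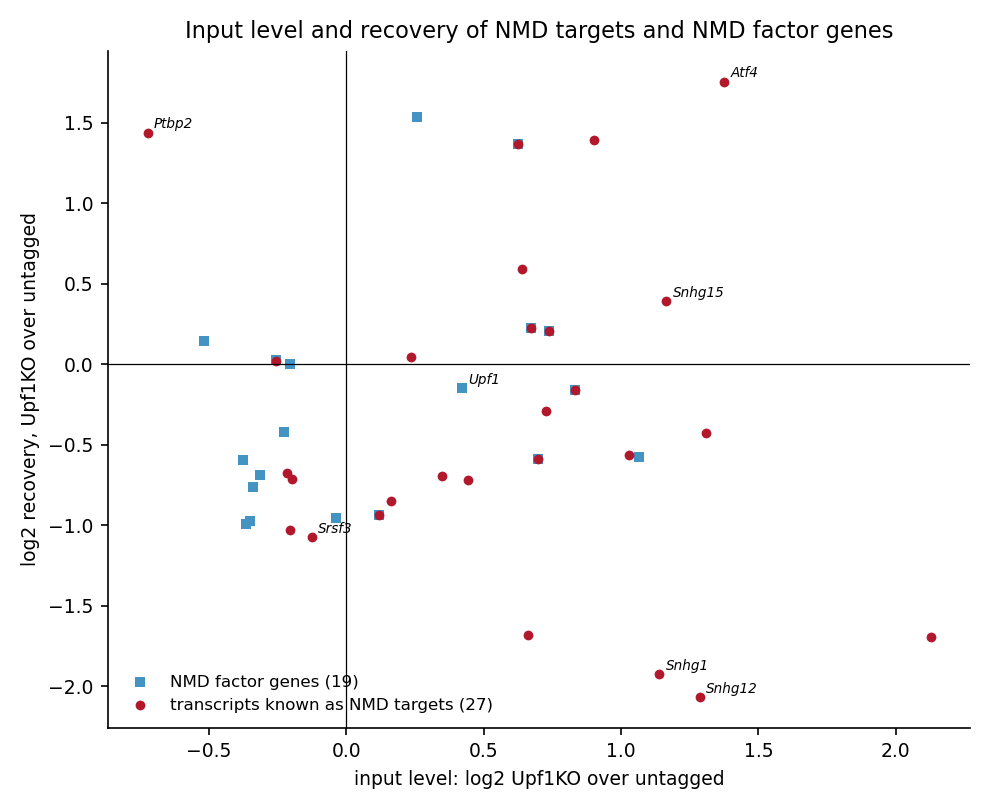
Log2 difference of the inputs, Upf1 knockout less untagged (x axis), and log2 recovery over untagged (y axis) of the 27 known substrates and the 19 factor genes of nonsense-mediated decay, 1 point per gene. Of the 27 substrates 16 were lower in recovery (31.8% of all genes were) and 20 higher in the inputs (19.7% of all genes were). Atf4 lies at 1.38 on the x axis and 1.76 on the y axis, and Snhg12 at 1.29 and -2.07.

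Recovery differed in its median between RNA classes and lengths. Of all genes, 31.8% were higher, 31.8% lower and 17.7% higher by at least 2-fold. Of 14397 protein-coding genes, 5340 were higher and 4459 lower (median 0.03), and 2853, or 19.8%, were higher by at least 2-fold. Of 1148 long noncoding RNAs, 260 were higher and 283 lower (median -0.15). Of 1923 pseudogenes, 233 were higher and 847 lower (median -0.47). No small nucleolar RNA of 134 was higher and 107 were lower (median -1.52). The untagged beads held these small RNAs above input (median 1.20 on the log2 scale), and the tagged IPs were slightly below input (median -0.25). The median recovery rose with gene length as deposited, from -0.77 for genes of up to 300 bases through -0.47 (over 300 and up to 1000 bases), -0.21 (up to 3000 bases) and 0.07 (up to 6000 bases) to 0.22 for genes over 6000 bases. Within protein-coding genes the Spearman correlation with length was 0.228, across genes. Over all genes the correlation of recovery with the mean input CPM was 0.023, and with length 0.281. The median did not move evenly with input level. It was -0.26 for genes over 100 CPM in the inputs (55.1% lower) and 0.02 for those of 10 to 100 CPM (38.0% lower). Long noncoding medians did not rise steadily with length, at -0.19, -0.22, -0.003 and -0.21 in the bins from over 300 to over 6000 bases. The medians of protein-coding genes, of the 2 longest bins of all genes and of genes of 10 to 100 CPM lie closer to 0 than the shift of -0.26 that library totals give. Their sign therefore depends on the scaling.

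**Figure D5:**
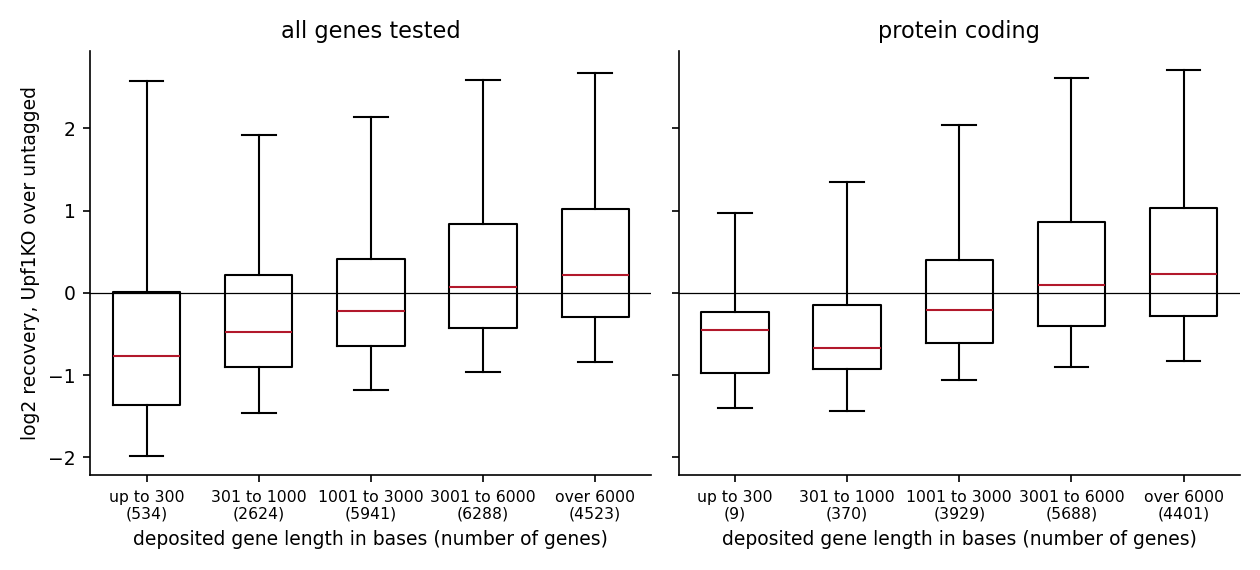
Log2 recovery of all genes tested (left) and of protein-coding genes (right) by bins of deposited gene length in bases, with the number of genes in each bin. The red line is the median, the box the middle 50% and the whiskers the 5th and 95th percentiles of genes. Protein-coding medians go from -0.67 between 300 and 1000 bases to 0.23 over 6000 bases.

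The mRNAs of cytosolic ribosomal proteins were low in the tagged IPs. Of 91 cytosolic ribosomal protein genes, 88 were lower and 2 higher (31.8% of all genes each way), with a median of -0.98. Lower by at least 2-fold were 42 of them, where 6.96% of all genes were. Rpl22l1, a paralogue of Rpl22 (chr3:28805508-28807424), stood at 53.3 to 122.6 CPM (median 84.4) in the untagged inputs and at 63.2 to 150.1 CPM (median 101) in the untagged IPs. In Upf1 knockout cells it stood at 54.2 to 105 CPM (median 75.7) in the inputs and 20.9 to 57.3 CPM (median 31.5) in the IPs, below the untagged IPs without overlap, with a log2 recovery of -1.39 (SE 0.09, adjusted p = 9.70e-16). The 2 exceptions were Rps27 and Rpl7l1, at 1.12 (SE 0.08) and 0.75 (SE 0.07). Many ribosomal protein genes have processed copies in the genome, which could take part of their reads. The inputs differed as well, being lower in Upf1 knockout cells for 83 of the 91 genes (25.8% of all genes were).

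Genes of energy metabolism and protein turnover were mostly lower as well. Of 85 nuclear genes of the respiratory chain, 70 were lower and 2 higher (median -0.74), against 31.8% of all genes each way. Atp5md, a subunit of ATP synthase, and Ndufa12, of complex I, were lowest at -1.48 (SE 0.11) and -1.28 (SE 0.09), and Ndufa5 was higher at 0.73 (SE 0.13). Of 37 proteasome genes, 32 were lower and 3 higher (median -0.66), against the same shares of all genes. Psma2, of the core particle, stood at 57.3 to 90.6 CPM (median 69.8) in the Upf1 knockout IPs, below all other libraries, and at 143 to 224 CPM (median 179.9) in the untagged IPs, a log2 recovery of -1.04 (SE 0.08, adjusted p = 1.46e-13). Psmd2, of the regulatory particle, was at 0.99 (SE 0.11).

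RNAs made inside mitochondria, a compartment apart from the cytosol, were also low. Of 13 mitochondrial mRNAs, 12 were lower (median -1.27), as were both mitochondrial ribosomal RNAs, where 31.8% of all genes were lower. ND6 stood at 67.3 to 95.5 CPM (median 91.3) in the Upf1 knockout IPs and at 189.7 to 351 CPM (median 257) in the untagged IPs, a log2 recovery of -1.71 (SE 0.14, adjusted p = 1.32e-09). The value for ND1 was -1.62 (SE 0.14). ND2 was the exception, at 0.33 (SE 0.17, adjusted p = 0.0882). The ribosomal RNAs mt-Rnr1 and mt-Rnr2 were at -1.43 (SE 0.14) and -1.54 (SE 0.09), and their inputs were higher in Upf1 knockout cells by 0.92 and 0.59 on the log2 scale.

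The mRNAs of nuclear RNA-binding proteins were mostly lower. Of 13 SR splicing factor genes, 11 were lower and none was higher (median -0.69), against 31.8% of all genes each way. Srsf3 (chr17:29032660-29043372) stood at 378 to 474 CPM (median 436) and 597 to 867 CPM (median 684) in untagged inputs and IPs, and at 339 to 463 CPM (median 392) and 234 to 335 CPM (median 319.7) in those of Upf1 knockout cells. The untagged IPs lay above their inputs and the tagged IPs below theirs, without overlap, and the log2 recovery was -1.07 (SE 0.08, adjusted p = 6.97e-14). Srsf5 was at -1.04 (SE 0.09). Of 23 hnRNP and PTB genes, 17 were lower and 4 higher (median -0.59), against the same shares of all genes. They ran from Hnrnpa2b1 at -1.02 (SE 0.09) to Hnrnpul1 at 1.70 (SE 0.06).

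Transcripts that host snoRNAs, and nuclear long noncoding RNAs, were mostly lower too. The largest exception lay at the imprinted Dlk1-Dio3 locus. Of 18 snoRNA host transcripts, 17 were lower and 1, Snhg15, was higher at 0.39 (SE 0.09, adjusted p = 2.55e-04), a call lost with library totals. Their median was -1.32, and 31.8% of all genes were lower and 31.8% higher. Of 11 nuclear long noncoding RNAs, 8 were lower and 2 higher (median -0.83), against the same shares of all genes. On the log2 scale their IPs stood at a median of 0.61 over input in untagged cells and -0.37 in Upf1 knockout cells. Malat1, a nuclear speckle RNA (chr19:5795690-5802672), stood at 186 to 482 CPM (median 304) in the untagged IPs and at 79.3 to 96.1 CPM (median 80.9) in the Upf1 knockout IPs, without overlap. The Malat1 inputs were also lower in Upf1 knockout than in untagged cells, without overlap. The untagged IPs lay above their inputs, while the tagged IPs overlapped theirs. The log2 recovery of Malat1 was -1.31 (SE 0.09, adjusted p = 5.05e-14). Firre, which organises chromatin, was at -1.07 (SE 0.07), Meg3 at -0.79 (SE 0.08), and Neat1, the paraspeckle RNA, at -0.83 (SE 0.13), the last not called in experiment 3 alone. Mir17hg, the host of the miR-17 to miR-92 cluster, was at -1.45 (SE 0.13).

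Rian (chr12:109603945-109661716), a long transcript of that imprinted locus that also hosts snoRNAs and microRNAs, went the other way. It stood at 224 to 279 CPM (median 247) and 238 to 327 CPM (median 304) in untagged inputs and IPs. In Upf1 knockout cells it stood at 278 to 327 CPM (median 304) and 1395 to 2417 CPM (median 1976), with every tagged IP above every other library. The log2 recovery was 2.42 (SE 0.07, adjusted p = 1.22e-25). Small RNA genes inside it, among them Mir341 and Mir370, overlap it, so part of its reads may be theirs. Its neighbour Meg3 was lower. Tug1 was the other higher member, at 0.30 (SE 0.07), lost with library totals.

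Some mRNAs were far above input on the beads without a tag, and 5 of the lowest 8 recoveries were of this kind. Incenp, of the chromosomal passenger complex (chr19:9872295-9899489), stood at 147 to 172 CPM (median 159) in the untagged inputs and at 366 to 9176 CPM (median 3281) in the untagged IPs. In Upf1 knockout cells it stood at 130.2 to 154 CPM (median 146) and 244 to 731 CPM (median 365). It was above input in both genotypes, by 3.68 and 1.5 on the log2 scale, and the difference gave a log2 recovery of -2.18 (SE 0.22, adjusted p = 8.60e-08). The untagged IPs of experiment 3 held 5839 to 9176 CPM (median 7419.9) and those of experiment 4 366 to 723 CPM (median 577), a wide spread.

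Dnttip2, a nucleolar protein gene, had the lowest value, -2.50 (SE 0.30, adjusted p = 8.72e-07), with 145 to 1429.6 CPM (median 582) in the untagged IPs and 67.1 to 138 CPM (median 90.2) in the Upf1 knockout IPs. Mki67, the proliferation marker, Sptbn1, a spectrin, and Atad2, a chromatin ATPase, were at -2.10 (SE 0.27), -2.02 (SE 0.36) and -1.82 (SE 0.26). Their untagged ratios of IP to input were 2.72, 3.25 and 3.56. Atad2 was not called in experiment 4 alone. The pseudogene H2-M6-ps, at -1.77 (SE 0.11), completed the lowest 8 together with Snhg1 and Snhg12. Across all 19910 genes the Spearman correlation of recovery with the untagged ratio of IP to input was -0.349, in which the untagged ratio enters both sides.

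For 2 such mRNAs, neither of them called on average, the sign of the recovery differed between the experiments. Arid4a, given below, also changed sign between them. Rab11fip5, a Rab11 effector, rose from 6.84 to 9.42 CPM (median 8.28) in the untagged inputs to 83 to 3648 CPM (median 1532) in the untagged IPs, and from 11.9 to 17.2 CPM (median 14.1) to 437 to 1687 CPM (median 1022) in Upf1 knockout cells. Its recovery, -0.37 (SE 0.27, adjusted p = 0.246), did not pass the test and was -1.99 in experiment 3 and 1.26 in experiment 4. Fip1l1, a subunit of the polyadenylation machinery, was at -0.03 (SE 0.31, adjusted p = 0.949), with -1.91 and 1.86 in the 2 experiments. It overlaps Lnx1. The untagged IPs held 6001 to 9685 CPM (median 6516) of Fip1l1 in experiment 3 and 303 to 586 CPM (median 545) in experiment 4, without overlap. The part that binding to the beads has in the other low recoveries was not tested.

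Set against the HA-Tnrc6a line, which has the tag without the Upf1 label, most recoveries were not told apart. The comparison of Upf1 knockout with HA-Tnrc6a recovery does not involve the untagged libraries. Of 19966 genes, 583 were higher (2.92%) and 313 lower (1.57%) in Upf1 knockout cells, 34 of them by at least 2-fold. Against a minimum of 2-fold, edgeR's glmTreat called 0 genes after adjustment and 54 at an unadjusted p under 0.05. The balance of higher and lower calls turned with the scaling. It was 352 against 315 with RLE size factors, 224 against 778 with library totals and 257 against 447 with all 48 libraries in 1 fit. It also turned when single libraries were left out, as the closing section lists. Direction in this comparison is given below for single genes and as counts or a median within lists. These list values were not tried under the other scalings.

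Ago4 differed most among the partners of the tagged protein. It stood at 1.91 to 4.98 CPM (median 3.18) in the HA-Tnrc6a IPs and at 8.51 to 12.7 CPM (median 10.2) in the Upf1 knockout IPs, with a log2 difference of recovery of 1.37 (SE 0.23, adjusted p = 3.06e-04). The other 3 Argonaute mRNAs differed by -0.09 to -0.01, and none passed the test. Tnrc6a itself differed by -0.13 (SE 0.18, adjusted p = 0.809). By size, Gpr146, a G protein-coupled receptor, Suox, sulfite oxidase, and Tmed9, a cargo receptor of the secretory pathway, were the highest of the genes of average log2 CPM at least 3 in that fit. Gpr146 had an average log2 CPM of 2.38 in the fit over untagged, under the cutoff of 3. Its log2 recovery of 6.19 is therefore not among those named above. The 3 differences were 1.20 (SE 0.29), 1.07 (SE 0.16) and 0.87 (SE 0.06). Tmed9 stood at 85.6 to 105 CPM (median 96.0) in the HA-Tnrc6a IPs and at 135 to 183 CPM (median 162) in the Upf1 knockout IPs.

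Among the lowest were Dnttip2 at -1.80, Incenp at -1.26 and Atad2 at -1.25, all named above for their level on untagged beads, together with Atrx, a chromatin remodeller, at -1.25. Of the 18 snoRNA host transcripts, 6 were lower than in HA-Tnrc6a cells and 1, Snhg15, higher. Of all genes 1.57% were lower and 2.92% higher in this comparison. Snhg1 and Snhg12 differed by -0.62 (adjusted p = 5.47e-05) and -0.70 (adjusted p = 2.11e-05), and their recoveries over the same untagged libraries were -1.32 and -1.38 in HA-Tnrc6a cells. Of the 27 decay substrates, which share members with the snoRNA host list, 4 were lower and 1 higher. Among the 12 miR-290 to miR-295 targets 1 was higher, Casp2 at 0.39 (adjusted p = 0.0149), and among the 5 Trim71 targets none passed, their differences having a median of 0.24.

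Which RNAs stayed recovered was read across experiments, so that the log2 values of the 2 sides were formed from different libraries. The gene filter, scaling and spread behind the calls came from fits that hold both experiments and the same untagged libraries. Of 3155 genes recovered by at least 2-fold from HA-Tnrc6a cells in experiment 3, 2626 (83.2%) were recovered by at least 2-fold from Upf1 knockout cells in experiment 4, where 16.9% of all 19807 genes were. They made up 78.3% of the genes recovered there. In the other direction, 2688 of 3138 (85.7%) were recovered, where 17.3% of all genes were, and they were 78.4% of those recovered. By class, the first direction gave 84.5% of 2618 protein-coding genes, 76.6% of 137 long noncoding RNAs and 76.9% of 117 pseudogenes. The second gave 87.8% of 2580, 76.2% of 143 and 72.7% of 128. The same reading was made within a single line. Of the 3155 genes of HA-Tnrc6a cells in experiment 3, 2615 (82.9%) were recovered from the same cells in experiment 4 (15.8% of all genes), and 2615 of 3138 (83.3%) in the other direction (15.9% of all genes). For Upf1 knockout cells the shares were 81.4% and 83.2%. The differences between these shares were not tested.

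The 2 experiments differed for 335 genes (1.68%), 131 with a higher recovery in experiment 4 and 204 with a lower one. This count ran from 207 (without the Upf1 knockout input numbered 4) to 507 (without the Upf1 knockout IP numbered 4), and was 467 without the untagged input and IP numbered 1. Tnrc6a was 8.45 in experiment 3 and 6.86 in experiment 4 (difference -1.59, SE 0.29, adjusted p = 0.00629). The Upf1 knockout IPs held 19756 to 23703 CPM (median 20689.8) and 8233 to 13936 CPM (median 9137) of it in the 2 experiments. The highest of the difference were Fip1l1, Rab11fip5 and Arid4a, a chromatin-binding protein gene, at 3.77, 3.25 and 2.95. Arid4a was -0.85 in experiment 3 and 2.09 in experiment 4. Its average was 0.62 (adjusted p = 0.00801), between the values of the experiments. Rora, a nuclear receptor, and 4930537H20Rik were recovered in both experiments but less in experiment 4, with differences of -1.77 and -1.66. No gene of the Argonaute list (4 genes) or the miR-290 to miR-295 target list (12 genes) was called in this comparison, where 1.68% of all genes were. Lists so short cannot show that the experiments were alike. The median recovery of the Argonaute genes was 3.20 in experiment 3 and 2.33 in experiment 4, and that of the targets 3.20 and 3.51.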

How the data were processed

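Inputs and HA immunoprecipitates of untagged and Upf1 knockout cells (24 libraries), and of HA-Tnrc6a cells for 1 comparison (12 more), were compared. The authors deposited raw read counts per gene, with a gene length in bases, for 20171 genes. Per the submitters' processing notes, bcl2fastq 2.20, STAR 2.7.3a and the GRCm38/mm10 build were used. The kit keeps strand, per the labels' protocols. The counter, its strand setting and the annotation are not given in the sources used here. The smallest maximum count of a gene was 11, so the table had been filtered. The columns carry numbers 1 to 6 and not the experiment. Numbers 1 to 3 were read as experiment 3 and 4 to 6 as experiment 4, from the labels' numbering. Another 48 per-sample columns were not used. The table names 16427 genes, RefSeq tables on GRCm38.p6 named 3725 more, and positions, classes and overlaps come from those tables.

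Counts were tested with edgeR 4.0.16 (R 4.3.3; limma 3.58.1) by the quasi-likelihood test with robust fitting. Genes passed filterByExpr at a minimum count of 10, libraries were scaled by TMM, and the model had 1 coefficient per genotype, fraction and experiment. Contrasts averaged the 2 experiments, p-values were adjusted by Benjamini-Hochberg over all genes tested, and genes were called at an adjusted p under 0.05. CPM are counts scaled to the TMM-adjusted library size in the usual way. Ratios of IP to mean input per library used a pseudocount of 0.5 CPM. CPM are not divided by gene length, so levels are compared between libraries and not between genes. Alternatives were RLE size factors, library totals, no filter, DESeq2 1.42.0, all 48 libraries in 1 fit, a replicate block, a minimum of 2-fold, each library left out, each experiment alone, and IPs without inputs. Each experiment alone is a contrast of the fit to both experiments. The fit without the untagged input and IP numbered 1 was added after seeing the data.

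The members and gene lists were chosen with earlier results of these data known. Named genes are the Argonaute and GW182 genes and Upf1, the 8 highest and 8 lowest recoveries (average log2 CPM 3 or above, sign shared by the 2 experiments), up to 2 highest and 2 lowest of each list, the 3 highest and 3 lowest of the other comparisons, and any member of a list under 13 genes. Some of the genes this rule gives are not reported here.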

Additional observations from a re-analysis of the deposited data

Results flagged for a closer look

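The recovery of 11 named genes differed between the experiments by the test of the difference, which is given here as experiment 4 less experiment 3 on the log2 scale. It was higher in experiment 4 for Fip1l1 (3.77), Rab11fip5 (3.25), Arid4a (2.95), Dnttip2 (2.79), Incenp (2.33) and Atad2 (2.17). It was lower in experiment 4 for Rora (-1.77), 4930537H20Rik (-1.66), Tnrc6a (-1.59), Malat1 (-0.90) and Dcp2 (-0.52).

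In groups of 6 libraries, 22 of the 466 groups checked had 1 library whose gap to its nearest neighbour was, as a share of the group's range, above Dixon's critical value. Chance gives about 1 in 20 for 6 values of 1 normal sample. Each group here held 3 libraries of each experiment, so that rate need not hold. A shift between the experiments can also hide a library that stands apart. The library standing apart was the untagged IP numbered 1 for the median log2 IP over input of the deadenylase genes (-0.36), the mitochondrial ribosomal RNAs (0.11) and the nuclear respiratory chain genes (0.12). It was the untagged IP numbered 4 for the median of the decay substrates (0.31) and the Upf1 knockout IP numbered 4 for the median of all genes (-0.0787).

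Among single genes, the untagged IP numbered 1 stood apart in Lefty2 (15.6 CPM), Rbl1 (19.2 CPM), Gm47513 (0.15 CPM), Sptbn1 (1194 CPM), Tmed9 (77.8 CPM), Ndufa12 (138 CPM) and Cenpi (24.1 CPM). The untagged input numbered 1 stood apart in Rbl2 (9.31 CPM), Atf4 (222 CPM), Ptbp2 (18.2 CPM), Gm47513 (1.64 CPM) and Tmed9 (90.9 CPM). Other such libraries were the untagged input numbered 5 in Lefty2 (12.2 CPM), the untagged input numbered 2 in Gnb5 (7.26 CPM), the Upf1 knockout IP numbered 1 in Mir17hg (38.9 CPM), the Upf1 knockout input numbered 1 in Ndufa5 (21.5 CPM) and the Upf1 knockout IP numbered 3 in Srsf3 (234.3 CPM).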

How the results depend on the processing

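The count of called recoveries over untagged stayed within 1.5 times of 12664 under every setting run except the minimum of 2-fold, which called 2818 genes (2581 higher and 237 lower). Of these 12664 genes, 253 were called with the opposite sign with IPs compared without inputs, 3 in experiment 4 alone, 1 in experiment 3 alone, and 0 under the other settings run. Leaving out 1 library gave 12327 to 13092 calls, with 5800 to 6453 higher and 5957 to 7279 lower. The fit without the untagged input and IP numbered 1 gave 13028, with 5774 higher and 7254 lower. This shift was not particular to number 1. Without the untagged IP numbered 1, 2 or 3 alone, 5813, 5800 and 5807 genes were higher and 7279, 7150 and 7163 lower. The comparison of experiments (335 calls, 131 higher and 204 lower) gave 1039 calls with library totals (947 lower), 601 with DESeq2 (236 higher, 365 lower), 270 higher with all 48 libraries in 1 fit, and 10 with a minimum of 2-fold (10 higher and 0 lower by edgeR's glmTreat, 259 at an unadjusted p under 0.05). Leaving out 1 library gave 207 to 507 calls there, with 89 to 226 higher and 78 to 297 lower. The count was 207 to 223 without the Upf1 knockout inputs numbered 2 and 4, the Upf1 knockout IP numbered 1, the untagged inputs numbered 5 and 6 or the untagged IP numbered 4, and 507 without the Upf1 knockout IP numbered 4.

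Against HA-Tnrc6a (896 calls, 583 higher and 313 lower), higher calls were 352 with RLE size factors, 349 with no filter, 257 with all 48 libraries and 224 with library totals, where 778 were lower. The minimum of 2-fold gave 0 calls, 0 higher and 0 lower, by edgeR's glmTreat, with 54 at an unadjusted p under 0.05. Experiment 3 alone gave 256 (137 higher, 119 lower), experiment 4 alone 275 (169 higher, 106 lower), and IPs without inputs 10034 (4931 higher, 5103 lower). Leaving out 1 library gave 591 to 957 calls, 202 to 567 higher and 238 to 606 lower. Calls were fewest without the HA-Tnrc6a inputs numbered 2, 3, 5 or 6. Higher calls were 202 to 343 without the HA-Tnrc6a inputs numbered 1, 2, 3, 5 or 6, its IPs numbered 1, 2, 3 or 5, or the Upf1 knockout IPs numbered 3 or 4. Lower calls were 517 to 606 without the HA-Tnrc6a IPs numbered 1 or 4 or the Upf1 knockout IP numbered 4. The causes were not tested.

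Signs turned for Arid4a (-0.85 in experiment 3 alone), Rab11fip5 (1.26 in experiment 4 alone, 0.41 for IPs without inputs), the Upf1 mRNA (0.27 for IPs without inputs), the median of the decay substrates (0.28 for IPs without inputs) and the median of the pluripotency genes (-0.13 with library totals, -0.0016 in experiment 3 alone). Fip1l1, not called in all libraries, was 1.86 in experiment 4 alone (-1.91 in experiment 3 alone) and ran from -0.22 to 0.10 with 1 library left out, turning above 0 without the Upf1 knockout IPs numbered 2, 3, 5 or 6 or the untagged IPs numbered 4 or 6.

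Same-numbered libraries did not all deviate together from their group means. The input and IP of 1 genotype correlated above 0 in 12 of 12 pairs (0.0368 to 0.505) and over 0.1 in 6, and libraries of different genotypes above 0 in 17 of 24 (-0.227 to 0.266). A fit with a replicate block called 12750 genes over untagged (6383 higher, 6367 lower), 473 between experiments (175 higher, 298 lower) and 1067 against HA-Tnrc6a (711 higher, 356 lower). The block gave each number an effect shared by both genotypes and both fractions. No fit modelled the input and IP of 1 genotype as a pair, so the effect of that pairing on the calls was not tested. Depth limits scarce genes, and counting error is larger in experiment 3, whose libraries hold fewer counts.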

Other observations

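Genes of pluripotency were divided by recovery. Of 20, 10 were higher and 7 lower (31.8% of all genes each way), with a median of 0.13. Higher by at least 2-fold were 5, where 17.7% of all genes were. Fgf4, a growth factor of embryonic stem cells, went from 113 to 151 CPM (median 132) in the Upf1 knockout inputs to 1239.6 to 2177 CPM (median 1702) in the IPs, against 114 to 138 CPM (median 131) in the untagged IPs, and had a log2 recovery of 3.87 (SE 0.07, adjusted p = 1.97e-31) by edgeR. Klf2, a transcription factor of the naive state, was at 3.24 (SE 0.08), and its inputs were lower than those of untagged cells, with a log2 difference of -1.0. Dppa5a and Dppa4, developmental pluripotency genes, were lowest at -0.96 (SE 0.09) and -0.74 (SE 0.08). The median of this list changed sign with library totals and in experiment 3 alone.

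Other families had members at both ends. Their counts stand beside 31.8% higher, 31.8% lower and 17.7% higher by at least 2-fold of all genes. Of 364 zinc finger genes named Zfp, 175 were higher, 102 of them by at least 2-fold, and 84 were lower (median 0.28). Zfp207, a spindle assembly protein gene, was lowest at -1.16 (SE 0.07). Of 20 centromere protein genes, 5 were higher and 12 lower (median -0.44), with Cenpq and Cenpi at 3.13 (SE 0.09) and 2.62 (SE 0.09) and Cenpf at -1.62 (SE 0.20). Cenpf was far above input on untagged beads, by 5.09 on the log2 scale. Of 43 secretory pathway genes, 17 were higher and 17 lower, led by Tmed4 at 3.44 (SE 0.08) and Sec11a, a signal peptidase subunit, at 3.03 (SE 0.09). Of 72 translation factor genes, 15 were higher and 32 lower (median -0.12). Of 57 replication-dependent histone genes, 1 was higher and 15, or 26.3%, lower (median -0.70), a lower share below that of all genes. With 1 library left out 11 to 21 were lower, and under the other settings 8 to 45. Of 76 microRNA precursor genes, 17 were higher and 26 lower (median -0.43), where 31.8% of all genes were higher and 31.8% lower. These counts may include reads of the host transcript.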
